A study of Schistosoma mansoni with 6 samples.

Results

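Genes for the extracellular matrix and for cell adhesion were followed in the body of adult male Schistosoma mansoni, a blood fluke, after gamma irradiation. A gene was taken as a member when its product name in the deposited table held collagen, laminin, integrin, cadherin, fibronectin, fibrillin, cell adhesion, nidogen, perlecan, agrin or catenin, and did not hold kinase, ubiquitin, zinc finger or GTPase. This gave 88 of the 10770 genes with exons. By role they were 11 collagens, 1 procollagen-modifying enzyme, 4 laminins and 1 agrin, 5 integrins, 49 cadherins, 3 catenins and 12 genes named cell adhesion molecule. Another 2 genes, an ADAM and an ADAMTS protease, matched only because the word disintegrin contains integrin. They are described by themselves and stay in the totals, and the main counts are also given without them. No member was named fibronectin, fibrillin, nidogen or perlecan.

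The worms were males of the NMRI strain, recovered from mice 43 days after infection. The 3 irradiated libraries came from worms given 200 Gy from a cobalt source, and the 3 control libraries from worms that were mock irradiated. All worms, controls included, were then kept 48 hours in culture in Basch medium, anaesthetised to part the sexes, and cut free of head and testes. Each library is RNA from a pool of 14 to 18 such bodies, so a difference between individual worms cannot be seen, and fewer cells of a type cannot be told apart from less RNA per cell. Each group has libraries A, B and C, and values per library are given in that order. The labels do not say whether separate infections supplied the pools, and a p-value here covers no more than pool-to-pool spread.

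Animal cells rest on and are wrapped in a matrix of collagen fibres and of sheets called basement membranes, in which laminin forms a network and agrin, a proteoglycan, binds it. Integrins, pairs of an alpha and a beta chain in the cell membrane, hold cells to that matrix. Cadherins hold cells to one another and are tied to the cytoskeleton by catenins, and proteins of the immunoglobulin superfamily named cell adhesion molecules do the same in many tissues, the nervous system above all. In planarians, free-living flatworms, much of the matrix is known to be made by muscle. The dividing somatic cells of these worms are stem cells called neoblasts, and irradiation removes them.

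Reads on exons numbered from 17577059 to 29641087 per library, and exons took 83.9% to 88.3% of the reads on genes, with the lowest share in control B. Levels are given as CPM, exon reads over the library size scaled by TMM, for comparing libraries, and as the authors' RPKM, which also divides by exon length, for comparing genes. The 4 stem cell genes ago2-1, nanos-2, fgfrA and fgfrB summed to between 111 and 116 CPM in controls and to between 29.6 and 37.9 CPM after irradiation, and all 4 were called lower, with log2 changes from -2.89 to -0.97. They had been picked with their fall known, so this only checks the labels. Muscle markers, 35 genes, summed to 30965 to 31751 CPM in controls and 29938 to 31789 CPM after irradiation, which overlap. The 54 tegument markers summed to 17704 to 18823 CPM in controls and 19511 to 21006 CPM after irradiation, which do not. By gene, 13 of the 49 tested tegument markers lay wholly above the controls and 1 wholly below. Together that is 28.6%, against 12.0% above, 13.3% below and 25.3% in all among tested genes. Of these 49, 39 had a log2 change above 0 and 10 below, and 3 were called higher (6.12%, against 0.619% of all genes). For tissue that should be absent, the only vitelline marker found, an eggshell precursor, lay between 0.0463 and 0.338 CPM, where 3 reads, the most that a count of 0 allows, make 0.101 to 0.171 CPM. The 12 genes of the testis and sperm list summed to 457 to 478 CPM in controls and 440 to 446 CPM after irradiation. Most of that sum came from nasp and mre11, which somatic cells use too.

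Levels differed widely between roles. All members together took between 1.09% and 1.18% of exon reads in the 6 libraries, and the groups overlapped. Collagens made most of it, 6204 to 6613 CPM in controls and 6139 to 6406 CPM after irradiation. The median over 6 libraries and 9 tested collagens was 132.7 RPKM, against 6.42 RPKM for 47 tested cadherins, 16.95 RPKM for the 5 laminin and agrin genes, 4.51 RPKM for 12 cell adhesion molecules and 23.5 RPKM for all 8885 tested genes. A level under 10 RPKM was found for 36 of the 47 cadherins and 2 of the 9 collagens, and a level of at least 100 RPKM for 5 collagens, the procollagen enzyme, the integrin beta chain and beta-catenin.

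**Figure D1:**
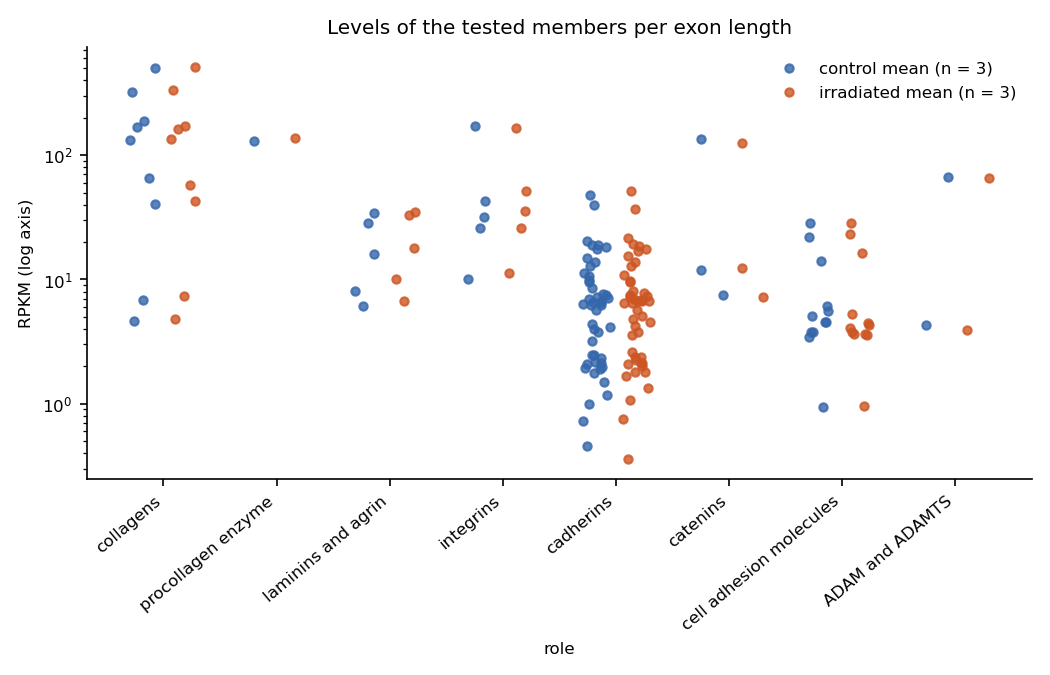
Mean RPKM (log axis) of the 84 tested members in the 3 control libraries (blue) and the 3 irradiated libraries (orange), by role; each point is a gene. The collagens reach 498 RPKM in controls and 516 RPKM after irradiation. On average over 6 libraries, 36 of 47 cadherins lie under 10 RPKM.

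After irradiation 1 of the 84 members with enough reads to test was called lower and 1 higher at the adjusted p threshold of 0.05 (the quasi-likelihood test of edgeR, with Benjamini-Hochberg adjustment across all genes). The cadherin Smp_162550 fell 1.49-fold and the laminin gamma-1 gene Smp_163810 rose 1.24-fold. Over all 8885 tested genes 2.49% were called lower and 0.619% higher, so the 2 calls, 2.38% of the members, lie near the 3.11% called in either direction. The median log2 change of the members was 0.00, as it was for all tested genes. The 3 irradiated libraries lay wholly below the 3 controls for 10 members and wholly above for 9, together 22.6% of those tested, against 13.3% below, 12.0% above and 25.3% in all among tested genes. Likewise 17 members, or 20.2%, had an unadjusted p under 0.05, against 21.6% of all genes. Without the ADAM and ADAMTS genes, 9 of 82 lay wholly below and 9 wholly above, 22.0% together, and the calls were the same. DESeq2 called 5 members lower and 3 higher, when it called 5.51% and 1.43% of all genes.

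Most of the members were measured well enough to bound a change. For 72 of 84 the log2 change was within 0.2 of 0, and for 76 of 84 the 95% interval stayed within 0.5 of 0 on the log2 scale. For all genes these shares were 79.2% and 80.7%, and for the members 85.7% and 90.5%. The remaining 4 of the 88 had too few reads to test. They were the collagens Smp_175630, with 14 reads over 6 libraries, and Smp_180110, named type IV, whose exon model has 18 bases and no read, and the cadherins Smp_196750 and Smp_126710, with 9 reads and 1 read.

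**Figure D2:**
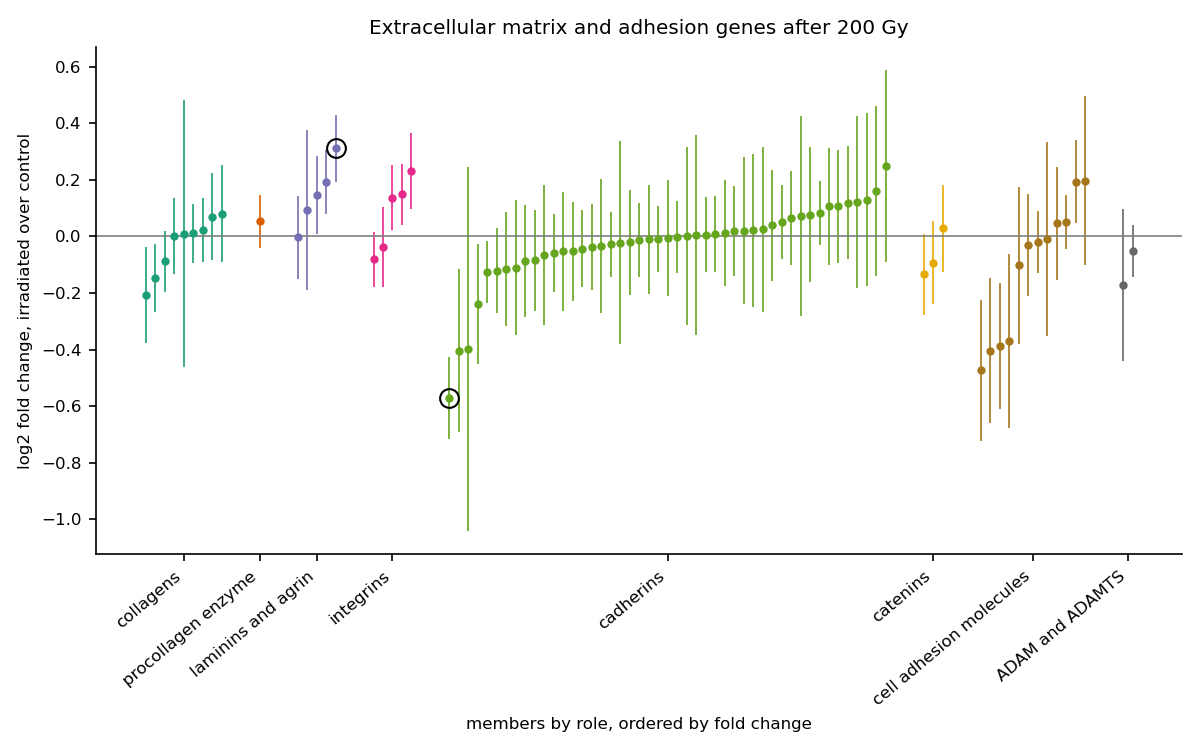
Log2 fold change, irradiated over control, of each of the 84 tested members with its 95% interval from edgeR, grouped by role and ordered within a role; circles mark the 2 members called at an adjusted p under 0.05. The called cadherin lies at -0.57 and the called laminin at 0.31, and most intervals cross 0.

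Of the collagens, fibre-forming proteins of the matrix, 0 of 9 tested were called in either direction by either edgeR or DESeq2, and 2 had a p under 0.05 before adjustment, as did 21.6% of all genes. The most abundant was the collagen alpha-1(I) gene Smp_135560, at 484, 502 and 510 RPKM in controls and 511, 510 and 526 after irradiation, a log2 change of 0.02 (SE 0.05, 95% interval -0.09 to 0.14). Next came the alpha-1(V) gene Smp_144910, at 328, 317 and 324 RPKM and then 328, 320 and 347, a log2 change of 0.01 (SE 0.05, 95% interval -0.09 to 0.12). The levels of these 2 genes overlapped between groups and stood apart from each other, and down the whole order of the 9 collagens no gene's range over 6 libraries met that of the next.

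Other genes named for the alpha-1(V) chain differed in how their groups lay. Smp_164590 had 992, 1022 and 1113 CPM in controls and 939.7, 941 and 941.4 CPM after irradiation, a log2 change of -0.15 (SE 0.05, edgeR adjusted p = 0.153). All its irradiated libraries were below all its controls, and nearly alike. Smp_170330 had 612, 731 and 724 CPM and then 560, 634 and 597 CPM, with overlap between irradiated B and control A, and a log2 change of -0.21 (SE 0.08, adjusted p = 0.159). It was called lower without control A (adjusted p = 0.0398), a fit in which 4.02% of all genes were. Smp_170340, its next neighbour in the RefSeq gene order, had 259, 264 and 261 CPM in controls and 245, 278 and 299.8 CPM after irradiation, with overlap and a log2 change of 0.07 (SE 0.07). Smp_123830, at 164.8 RPKM, had non-overlapping groups and a log2 change of -0.09 (SE 0.05).

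The other 3 tested collagens had log2 changes between 0.00 and 0.08. One of them, Smp_119050, is the next neighbour of the alpha-1(I) gene. Only 64.1% of the exon reads of Smp_119050 mapped to a single place, and where the others map was not tested. The procollagen-lysine dioxygenase gene Smp_045940, whose enzyme hydroxylates lysines of new collagen so that fibres can be cross-linked, had 424, 419 and 418 CPM in controls and 438, 426 and 446 CPM after irradiation. Its groups did not overlap, but the log2 change was 0.05 (SE 0.04, 95% interval -0.04 to 0.15, edgeR adjusted p = 0.483).

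Among the basement membrane genes, the laminin gamma-1 gene Smp_163810 was called higher. It had 36.5, 35.4 and 35.2 CPM in controls and 45.1, 45.3 and 42.6 CPM after irradiation. The controls lay close together and every irradiated library was above them, with means of 35.7 ± 0.721 and 44.4 ± 1.52 CPM (SD, n = 3). The log2 change was 0.31 (SE 0.05, 95% interval 0.19 to 0.43, edgeR adjusted p = 0.0128). In the authors' deposited table the same gene has a fold change of 1.26 and an unadjusted p of 0.000949. The call was lost without control B (adjusted p = 0.0508), without control C (0.0689), without irradiated A (0.0701), on exon-exon reads (0.0647), on gene reads with introns (0.0815), in limma on RPKM (0.0585 and 0.0587) and with the exon share of each library in the model (0.0528), while the log2 change stayed between 0.23 and 0.35 over all 19 alternatives.

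The other laminins leaned the same way by smaller amounts and did not pass the test. The laminin beta gene Smp_148790 had 191, 188 and 200.5 CPM in controls and 212, 233 and 217 CPM after irradiation, with no overlap, a log2 change of 0.19 (SE 0.05, edgeR adjusted p = 0.0756). DESeq2 called it higher (adjusted p = 0.0283), as it did 1.43% of all genes. The long laminin gene Smp_143680 had 165, 186 and 175 CPM and then 185.9, 208 and 188 CPM, again apart, though irradiated A barely exceeded control B, and a log2 change of 0.15 (SE 0.06, adjusted p = 0.206). Of all tested genes 12.0% likewise lay wholly above the controls. The short laminin gamma-3 model Smp_128590, of 783 bases and 830 reads in all, overlapped, at 0.09 (SE 0.13). Agrin, Smp_155050, which is best known for gathering receptors at nerve-muscle contacts in vertebrates, had 236, 241 and 223 CPM in controls and 213, 254 and 231 CPM after irradiation, a log2 change of 0.00 (SE 0.07, 95% interval -0.15 to 0.14). All 5 of these genes were highest in irradiated B, as were 13.7% of all tested genes.

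Of the 5 integrin genes, 0 were called in either direction by edgeR, though 3 had a p under 0.05 before adjustment, as did 21.6% of all genes, and DESeq2 called 1 higher, as it did 1.43% of all genes. The integrin beta chain Smp_089700 was the most abundant, at 170, 169 and 177 RPKM in controls and 164, 165 and 168 RPKM after irradiation. Its irradiated libraries were all below its controls, by a log2 change of -0.08 (SE 0.04, edgeR adjusted p = 0.311). It is the only beta chain among the members, and its level exceeded those of the 4 alpha genes, which had 47.4, 33.9, 25.8 and 10.7 RPKM over 6 libraries, with no overlap between neighbours in that order.

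3 of the 4 alpha genes were higher in every irradiated library than in any control, as were 12.0% of all genes, and none of them passed the edgeR test. Smp_170280, an alpha-PS gene named for the position-specific integrins of the fruit fly, had 232, 224 and 225 CPM in controls and 242, 284 and 274 CPM after irradiation, a log2 change of 0.23 (SE 0.06, adjusted p = 0.0739). It was called higher by DESeq2 (adjusted p = 0.0129) and without irradiated A (0.0215), a fit that called 0.246% of all genes higher. Smp_126140 had 45.9, 45.4 and 44.0 CPM and then 51.0, 49.5 and 49.5 CPM, a log2 change of 0.15 (SE 0.05, adjusted p = 0.121). Smp_156620 had 82.3, 84.0 and 85.6 CPM and then 87.2, 95.4 and 94.6 CPM, a log2 change of 0.14 (SE 0.05, adjusted p = 0.164). The shortest model, Smp_181010, overlapped, with a log2 change of -0.04 (SE 0.06).

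Of the 47 tested cadherins, calcium-dependent proteins that join cells, 1 was called lower and 0 higher. That is 2.13% of them, near the 2.49% lower and 0.619% higher among all genes. Cadherin Smp_162550 had 50.5, 56.3 and 48.2 CPM in controls and 34.7, 35.0 and 34.7 CPM after irradiation. The irradiated libraries were nearly alike and all lay well under the lowest control. The log2 change was -0.57 (SE 0.06, 95% interval -0.72 to -0.43, edgeR adjusted p = 0.000986), and the means were 51.7 ± 4.21 and 34.8 ± 0.179 CPM (SD, n = 3). In the authors' deposited table its fold change is -1.46, with an unadjusted p of 0.00105. It was called lower in all 19 alternatives, which include 6 fits without a library (adjusted p from 0.00222 to 0.00558), with log2 changes from -0.66 to -0.50. All its exon reads mapped to a single place, and its level over 6 libraries was 8.93 RPKM.

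The other 46 tested cadherins were not called. The 2 most abundant were Smp_132320, at 231, 242 and 226 CPM in controls and 239, 260.1 and 242 CPM after irradiation, and Smp_151620, at 182, 176 and 192 CPM and then 171, 171 and 162 CPM. The first overlapped between groups (log2 change 0.08, SE 0.05) and the second did not (-0.13, SE 0.05, edgeR adjusted p = 0.177). The longest model, Smp_135610, with 11634 exon bases, was named after its values were seen. It had 81.7, 103 and 85.2 CPM in controls and 59.5, 82.9 and 62.2 CPM after irradiation, with irradiated B above control A and a log2 change of -0.40 (SE 0.13, adjusted p = 0.12). It was called lower without irradiated B (adjusted p = 0.00694), a fit in which 8.09% of all genes were, and by DESeq2 (0.0131), which called 5.51% lower.

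Among the cadherins only Smp_162550, Smp_151620 and Smp_011430 had groups that did not overlap, all of them lower after irradiation, which is 6.38% of the 47 against 25.3% of all genes. Smp_011430, named after its values were seen, lay at 7.87, 8.14 and 8.33 CPM and then 6.59, 6.62 and 7.40 CPM. The values of the scarce ones were imprecise. Smp_166440, with 170 reads over 6 libraries, had a log2 change of -0.40 and a 95% interval from -1.04 to 0.24, and Smp_155600, the highest of the family, had 0.25 with an interval from -0.09 to 0.59. Cadherins also lie side by side. In the RefSeq gene order 5 pairs of member cadherins were direct neighbours. Smp_199910 and Smp_176470, which are in none of those pairs, had only 65.6% and 68.7% of their exon reads mapped to a single place. Where their other reads map was not tested.

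Catenins bind the inner ends of cadherins, and beta-catenin also carries Wnt signals to the nucleus. Of the 3 catenin genes, 0 were called by either edgeR or DESeq2, and 0 had a p under 0.05 before adjustment. The beta-catenin gene Smp_023550, at 129 RPKM, was by far the most abundant of them per length. It had 633, 723 and 722 CPM in controls and 601, 662 and 631 CPM after irradiation, with irradiated B above control A, a log2 change of -0.13 (SE 0.06, 95% interval -0.28 to 0.01). The catenin and plakophilin gene Smp_042340 and alpha-catenin Smp_130900, which links cadherins to actin, had log2 changes of 0.03 (SE 0.07) and -0.09 (SE 0.07). At 12.1 and 7.36 RPKM, they lay far under beta-catenin.

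The 12 genes named cell adhesion molecule had log2 changes from -0.47 to 0.20, and 0 were called in either direction by edgeR. Before adjustment 5 had a p under 0.05, against 21.6% of all genes, and DESeq2 called 3 lower, against 5.51%. Smp_024660 had 35.1, 44.5 and 40.9 CPM in controls and 25.2, 32.8 and 29.0 CPM after irradiation, a log2 change of -0.47 (SE 0.11, adjusted p = 0.0559, edgeR, and 0.00147, DESeq2). Smp_165740 had 20.8, 24.8 and 24.0 CPM and then 16.4, 20.0 and 16.8 CPM, a log2 change of -0.39 (SE 0.10, adjusted p = 0.0694, edgeR, and 0.017, DESeq2). For both genes every irradiated library was below every control, as for 13.3% of all genes. Within each group library A was the lowest and B the highest.

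Smp_134190 and Smp_164270 had similar log2 changes and are named after their values were seen. Smp_134190 had 14.5, 17.8 and 14.6 CPM in controls and 11.3, 13.5 and 10.8 CPM after irradiation, a log2 change of -0.40 (SE 0.11, adjusted p = 0.0892, edgeR). Its irradiated libraries too were all below its controls, which makes 3 of the 12 genes, while 2 of the 12 were wholly above. Smp_164270 had 26.8, 29.0 and 27.6 CPM and then 18.1, 27.4 and 19.5 CPM, so that irradiated B lay among the controls, and a log2 change of -0.37 (SE 0.14, adjusted p = 0.161). Without irradiated B all 4 of these genes were called lower (adjusted p from 0.00261 to 0.0226), a fit that called 8.09% of all genes lower. Their levels were low, between 4.08 and 5.27 RPKM over 6 libraries, and did not stand apart from one another.

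The most abundant members of this group, Smp_174040 and Smp_141410, stayed near 0. Smp_174040, which resembles neurotrimin and its relatives, proteins of the neuronal surface in vertebrates, had a log2 change of -0.02 (SE 0.05) at 28.3 RPKM, and Smp_141410 of 0.05 (SE 0.04) at 22.7 RPKM. Smp_058670 is named cerebral cell adhesion molecule, a name shared with a human relative of the collagen galactosyltransferases, which put sugar on new collagen. It had 34.9, 32.2 and 34.1 CPM in controls and 38.2, 36.4 and 41.3 CPM after irradiation, with no overlap and a log2 change of 0.19 (SE 0.06, adjusted p = 0.13). The other 5 genes lay between -0.10 and 0.20, and all overlapped.

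**Figure D3:**
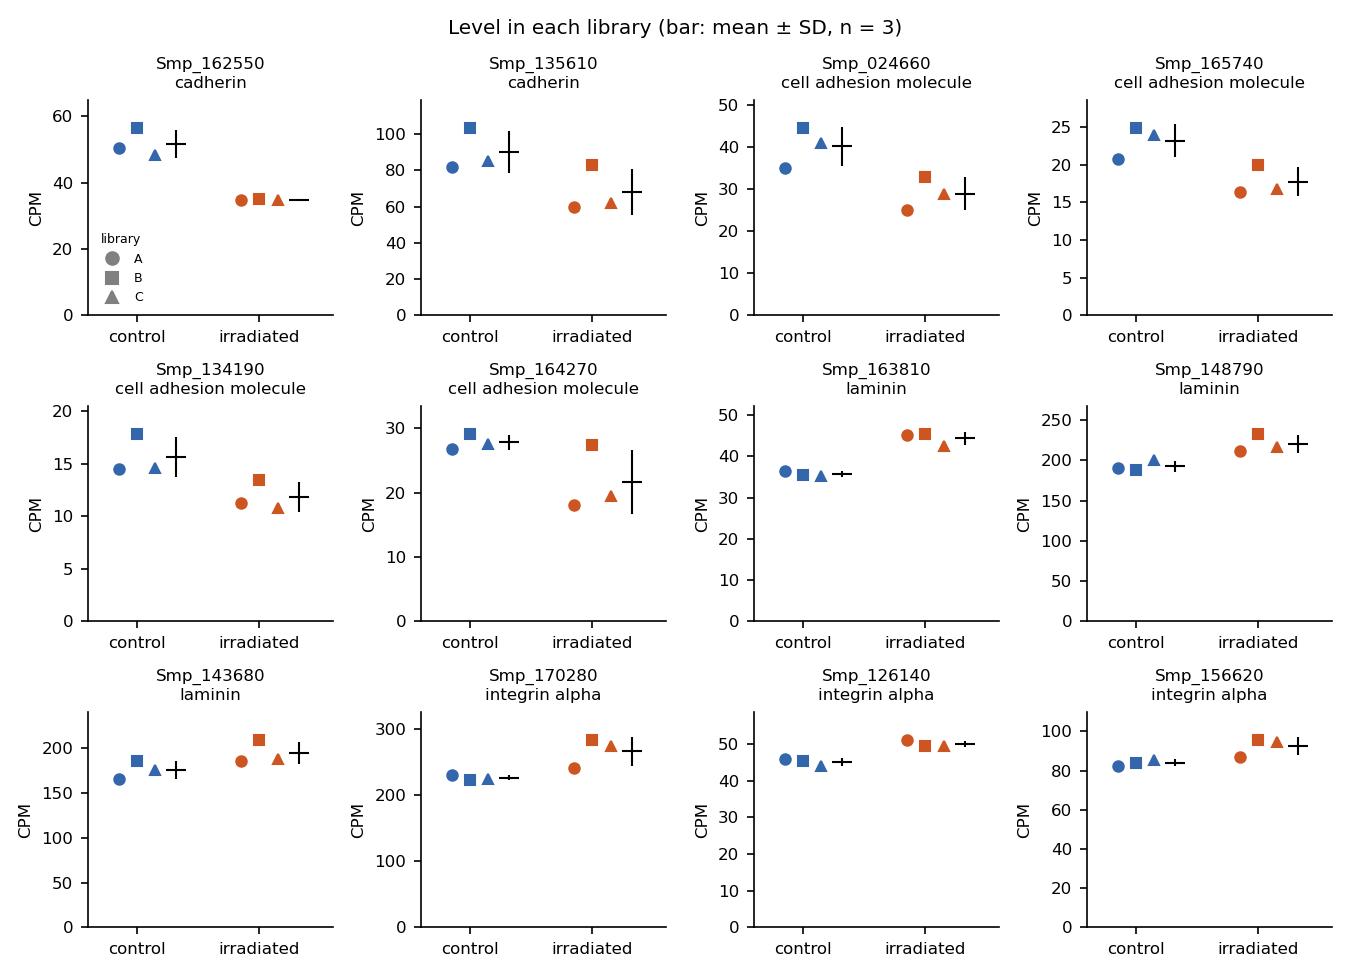
CPM in each of the 6 libraries (circle A, square B, triangle C; axes start at 0) for 12 members: the 2 cadherins and the 4 cell adhesion molecules with the lowest log2 changes among those above 1 RPKM, and the laminins and integrin alpha genes whose groups lay apart. Black marks are the mean ± SD of 3 libraries. Cadherin Smp_162550 stands at 34.7 to 35.0 CPM after irradiation against 48.2 to 56.3 CPM in controls, while for Smp_164270 irradiated B, at 27.4 CPM, lies among the controls.

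The 2 genes that matched through the word disintegrin encode metalloproteases, enzymes that cut membrane proteins or matrix. The ADAMTS gene Smp_145890 had 213, 218 and 209 CPM in controls and 205, 204 and 208 CPM after irradiation, narrowly apart, a log2 change of -0.05 (SE 0.04). The ADAM gene Smp_127740 had 36.7, 44.5 and 37.2 CPM and then 31.6, 42.1 and 31.9 CPM, with overlap and -0.17 (SE 0.12). Neither was called by edgeR or by DESeq2.

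Many members also differed from library to library. Of the 84 tested, 26 had their highest CPM in control B and 26 in irradiated B, 31.0% each, against 25.7% and 13.7% of all tested genes. Control B also had the lowest share of reads on exons, 83.9% against 86.9% to 88.3% in the other 5 libraries. The part of that in these values was examined only by adding the share to the model, a choice made after seeing the data. Such a fit cannot separate the share from anything else that sets control B apart, nor fully from the groups. The share was 83.9% to 87.7% in controls and 87.0% to 88.3% in irradiated libraries. With the share in the model, Smp_162550 had a log2 change of -0.50 (adjusted p = 0.00338, edgeR) and was the only member called. In that fit 1.41% of all genes were called lower and 0.180% higher. The laminin Smp_163810 stayed at 0.31 but was not called. Smp_024660 went to -0.33 and Smp_135610 to -0.22.

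Leaving out a library moved the counts of members and of all genes together. Without irradiated B 6 members were called lower, and without control A 4, when 8.09% and 4.02% of all genes were. The cadherin Smp_162550 was the only member called lower without control B or C and without irradiated A or C, when 1.41%, 1.33%, 1.38% and 1.42% of all genes were. At most 1 member was called higher in any of these fits. It was the laminin Smp_163810 without control A, irradiated B or irradiated C, and the integrin Smp_170280 without irradiated A, when 1.40%, 1.44%, 0.369% and 0.246% of all genes were. There was none without control B or control C, when 0.202% and 0.179% were.

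**Figure D4:**
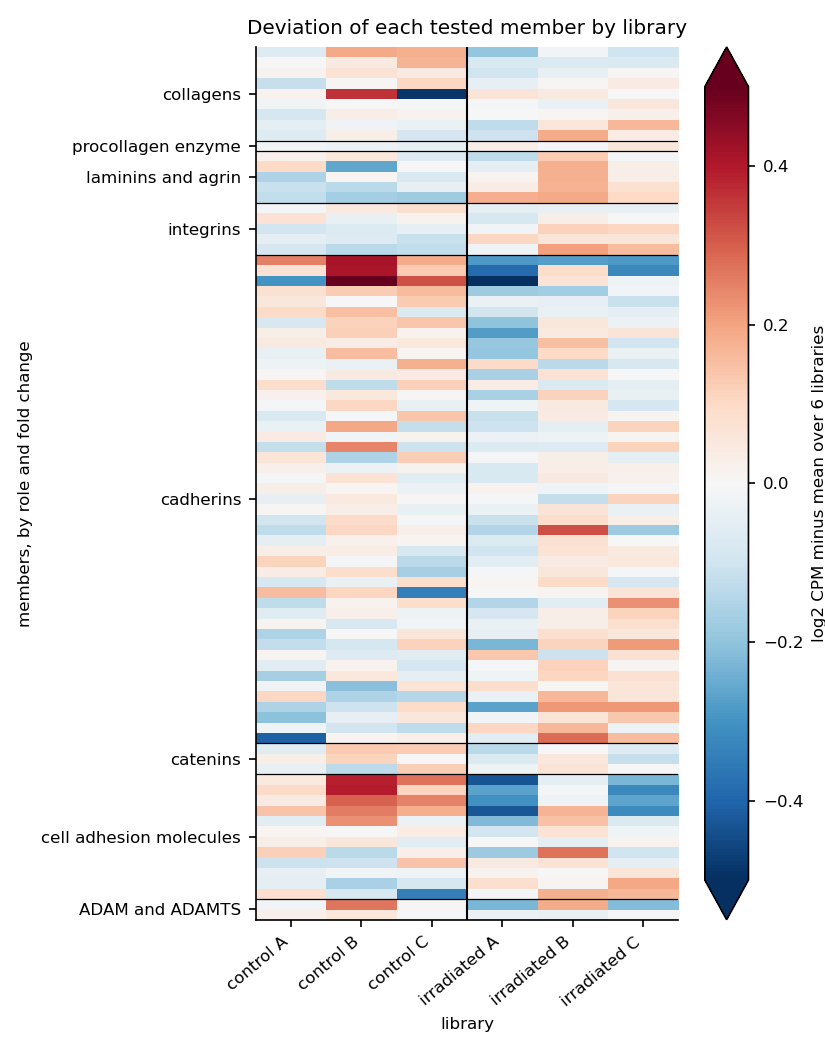
Log2 CPM of each of the 84 tested members minus its own mean over the 6 libraries (red above, blue below; colours end at 0.5), with members in rows by role and fold change and libraries in columns. The called cadherin is the top row of its block, and irradiated B is red for all 5 laminin and agrin genes.

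A wider list held partners of matrix and adhesion proteins, such as talins, tensins, innexins and glypicans. Of 86 such genes 85 were tested, with 1 called lower and 0 higher by edgeR, while 28 had an unadjusted p under 0.05 (32.9%, against 21.6% of all genes) and DESeq2 called 7 lower and 4 higher (5.51% and 1.43% of all genes). The only call was Smp_173700, from 52.7 ± 2.33 to 43.7 ± 2.19 CPM (SD, n = 3), a log2 change of -0.27 (SE 0.06, adjusted p = 0.0385). Its product is the chromosome protein SMC3, a cohesin subunit, which entered the list because an older name of it is basement membrane chondroitin proteoglycan. The call was lost in each fit without a library other than irradiated B. A second gene of the list named for SMC3, Smp_136970, was not called. Its irradiated libraries were all below its controls, by a log2 change of -0.18 (SE 0.04, edgeR adjusted p = 0.0643). Among the 78 tested partners whose names fit the theme 0 were called by edgeR in either direction, and 25, or 32.1%, had an unadjusted p under 0.05.

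The most abundant partners per length were alpha-actinin Smp_014780, which cross-links actin, at 248 RPKM, and an innexin, Smp_141290, at 245 RPKM. Innexins form the gap junctions of invertebrates. The alpha-actinin had 969.9, 1025 and 1060 CPM in controls and 945, 943 and 913 CPM after irradiation, a log2 change of -0.12 (SE 0.05, adjusted p = 0.189). The innexin had 875, 783 and 720.2 CPM and then 923, 1023 and 1033 CPM, a log2 change of 0.32 (SE 0.08, adjusted p = 0.0556, edgeR, and 0.000652, DESeq2). Its irradiated libraries were all above its controls.

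Some partner families lay on different sides of 0, described here with values and no call. Both peroxidasin genes, whose enzyme cross-links collagen IV in other animals, had log2 changes of 0.22 and 0.25 and lay wholly above the controls, as did 12.0% of all genes. The 4 discoidin domain receptors, which bind collagen, all lay below 0, from -0.32 to -0.07, and 3 of them lay wholly below the controls, as did 13.3% of all genes. Groups did not overlap for 34.1% of all tested partners. The 5 tensins, which join integrins to actin, lay from -0.40 to -0.01, the 3 talins, which switch integrins on, from -0.13 to -0.09, and the 2 dystrophins, which tie the cytoskeleton to laminin through dystroglycan, at -0.44 and -0.37. Muscle markers beside them went both ways, from -3.50 to 0.24 over 33 tested genes. Their median was -0.01, and 23 of the 33 were within 0.2 of 0 (69.7%, against 79.2% of all genes). A paramyosin and the titin Smp_163920 were called lower and 0 muscle markers higher, 6.06% of the 33. Among all genes 2.49% were called lower and 0.619% higher. Of the titins, giant proteins of the contractile fibres, Smp_157010, Smp_126240, Smp_163920 and Smp_197080 lay at -0.65, -0.53, -0.41 and -0.29, and each was highest in library B of both groups, as were the dystrophin Smp_076500 and the tensin Smp_139400. The other 4 tested titins lay between -0.01 and 0.18. The part of muscle in the members' and partners' values was not tested.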

How the data were processed

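RNA-seq of 6 pools (3 control, 3 irradiated) was analysed from a table that gives, per the file headers, read counts of exons, genes and exon-exon junctions, RPKM values, and the authors' fold change (a signed score) and P-value. Per the labels, libraries were made with a TruSeq kit and run on a single lane. The aligner, counting program and genome build are not named in the labels or headers. The deposited RPKM equals exon reads over the product of exon length and total gene reads, to within a relative 3.77e-08. The other columns give exon length and number of exons.

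Total exon reads of genes with an exon length above 0 (10770 of 13305 rows) were tested with edgeR 4.0.16 in R 4.3.3 (filterByExpr, TMM, quasi-likelihood F test, irradiated minus control) and adjusted by Benjamini-Hochberg over the 8885 tested genes and a call at an adjusted p under 0.05. The SE is the log2 fold change over the square root of F. DESeq2 1.42.0 and limma 3.58.1, on log2(RPKM + 0.5) or log2(RPKM + 0.1), were alternatives, and the test was checked on simulated data. Precision rests on 17577059 to 29641087 exon reads per library, and intervals and limits from a count of 0 cover counting or pool error only. No pair of libraries of a group agreed within sampling noise. Deviations of same-letter libraries from their group means correlated at r = 0.04 (A), 0.18 (B) and -0.10 (C). Those of different letters ran from -0.21 to 0.18, so letters were not taken as pairs. Deviations within a group cancel out, so these correlations are tied to one another and cannot settle whether the letters pair the pools. Strand was not stated, so overlapping genes cannot be told apart. All 88 members matched the RefSeq table of assembly ASM23792v2, used only for gene order. Its version may not be the authors' build.

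The members, the partner and marker lists and the tests were chosen with earlier results of these data known. Named were called members, the 2 most abundant of each role, the 4 uncalled members of smallest p with groups apart, called partners and the 2 most abundant partners. Other members complete a role, and any further cadherin, cell adhesion molecule, partner or muscle marker was named after its values were seen. Of the partner list, 7 names fall outside its theme: both SMC3 genes, the 3 adiponectin receptors, kinectin and a slit-robo GTPase activator.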

Additional observations from a re-analysis of the deposited data

How the results depend on the processing

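Cadherin Smp_162550 was called lower in all 19 alternatives. Members called lower numbered 1, but 5 with DESeq2 and 2 with no filter beyond 1 read (3.02% of all genes). Members called higher numbered 1, but 3 with DESeq2 and 0 on exon-exon reads (0.592%), on gene reads with introns (0.478%), in limma with a pseudocount of 0.1 or 0.5 (0.428% and 0.439%) and with the exon share as a covariate. Leaving out a library gave 1 to 6 lower and 0 to 1 higher. Partners called lower numbered 1, but 7 with DESeq2 (5.51% of all genes) and 0 to 12 without a library (1.33% to 8.09%). There were 0 with 5 CPM in 3 libraries (1.02%) or the exon share (1.41%). Likewise 0 were called lower on exon-exon reads (2.51%), on gene reads (1.85%) and in limma with either pseudocount (1.56% and 1.58%). Partners called higher numbered 0, but 4 with DESeq2 (1.43% of all genes) and 2 with upper-quartile scaling (0.889%). There was 1 on exon-exon reads (0.592%), on unique exon reads (0.656%), with no filter (0.741%) and with thinned libraries (0.717%). Without a library 0 to 2 were called higher (0.179% to 1.44%). Of all genes, 221 were called lower and 55 higher, but 490 and 127 with DESeq2, 77 and 26 with 5 CPM in 3 libraries, and 125 and 16 with the exon share. In limma 139 or 140 were lower, and without a library 119 to 723 were lower and 16 to 129 higher. The cause was not tested.

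With the letter as a replicate block, 7 members were called lower and 4 higher (9.58% and 3.12% of all genes), 13 and 3 partners, and 851 and 277 of all genes. The letters are not shown to pair the pools. Thinning and the exon share were chosen after seeing the data.

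Of 418 recomputed log2 changes of named genes, 360 kept direction and call, 22 gained a call, 19 lost one and 17 changed sign. The sign changed only in genes that were not called. Agrin Smp_155050 went from 0.00 to 0.0395 with the exon share, 0.0202 and 0.0200 in limma, 0.0249 with upper-quartile scaling and 0.00267 when thinned, and from -0.0713 to 0.0608 without a library. Smp_174040 went to 0.0065 and 0.00641 in limma and 0.00815 with upper-quartile scaling, and Smp_042340 to -0.0143 with the exon share. Without a library Smp_174040 ranged from -0.0517 to 0.00604, Smp_042340 from -0.0236 to 0.0980, Smp_135560 from -0.0103 to 0.0488 and Smp_144910 from -0.0135 to 0.0315. With 170 reads over 6 libraries, cadherin Smp_166440 had an SE of 0.29.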
